A study of Caenorhabditis elegans with 6 samples.

Results

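The miRNAs cel-mir-49 and cel-mir-83 of Caenorhabditis elegans are the worm members of the miR-29-like group, placed together because their mature strands are known to share a seed. They are 2 of the 253 miRNA genes counted in small RNA libraries from dissected adult gonads. The pair was put forward for its shared seed and was also chosen on the male to hermaphrodite difference in these same libraries. The values of that comparison are therefore given as a description, with their errors and with no test of the members. All libraries were of the N2 genotype, the standard laboratory strain, with no treatment other than sex. There were 3 libraries from males, whose gonad makes sperm, and 3 from hermaphrodites, whose gonad makes sperm first, in late larvae, and only oocytes in the adult. The labels give the cell type as germline, but a whole gonad also holds somatic sheath and duct cells. They do not give the number of animals pooled per library. Both members passed the filter on low counts, with at least 15 counts in every library.

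A miRNA guides an Argonaute protein to messenger RNAs that pair with its seed, a short run of bases near the start of the mature strand, and lowers their output. miRNAs with the same seed can share targets, so the members of a seed group are often considered together. In mammals miR-29 is best known for repressing collagen and other extracellular matrix genes. In the worm, mir-83 is known to act with mir-34 in the migration of the cells that shape the gonad, and mir-83 has also been studied in ageing. Less is known of mir-49.

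The genes lie on different chromosomes. In the WBcel235 assembly mir-49 is annotated on the plus strand of chromosome X, from 9989282 to 9989378, as a hairpin of 97 bases. It overlaps no other gene, and the nearest protein-coding genes are F19C6.5, 4.34 kb before it, and grk-1, 1.87 kb after it, both on the minus strand. The hairpin of mir-83 is annotated on the plus strand of chromosome IV, from 7841631 to 7841728, and is 98 bases long. It lies between the protein-coding genes C06A6.7 and C06A6.2, and 21 of its bases overlap a non-coding RNA gene on the same strand, C06A6.9. Each hairpin holds 2 annotated mature strands, of 23 bases on the 5′ arm and 22 bases on the 3′ arm. The shared seed is known to lie in the 3′ strand. The counts are given per miRNA gene, so the arms are not separated.

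Neither gene sits in a cluster of miRNA genes. The miRNA genes nearest to mir-49 are mir-799, 1390 kb before it, and mir-251, 1020 kb after it, and both were at 0 in all 6 libraries. The nearest to mir-83 are mir-1820, 74.1 kb before it, and mir-4920, 292 kb after it. The latter was also at 0 in all 6 libraries. For mir-1820 there were 15 to 24 counts in hermaphrodite and 4 to 20 in male libraries. Its log2 fold change was 1.01 (SE 0.588), which was not called (adjusted p 0.132 in edgeR's fit over all tested miRNAs).

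The libraries were unequal in depth. Hermaphrodite libraries held 2268159 to 2621478 miRNA counts and male libraries 245399 to 597166, so depth and sex cannot be told apart. Male replicate 3 was the shallowest library and stood apart from the other male libraries. Its correlation with them over the 124 tested miRNAs was 0.939 and 0.926 (Pearson's r of log2 scaled CPM), against 0.989 between male replicates 1 and 2 and at least 0.992 between hermaphrodite libraries. The markers matched the labelled sexes. The oocyte and embryo miRNAs mir-35 to mir-42 summed to between 202000 and 344000 scaled CPM (counts relative to the TMM-scaled library size) in hermaphrodite libraries and to between 390 and 449 in male libraries. Several results that draw on male replicate 3 are also given without it. Correlations between miRNAs, and the members' positions by mean level or by size of change, were not computed without it.

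Both miRNAs were scarce in hermaphrodite gonads and higher in every male library. In hermaphrodite replicates 1, 2 and 3, mir-49 had 15, 18 and 16 counts, or 5.72, 7.69 and 7.05 CPM (counts scaled to the same library total). In male replicates 1, 2 and 3 it had 39, 24 and 43 counts, or 65.3, 54.5 and 175 CPM. Male replicate 3 was the highest of the 6 and no male library overlapped a hermaphrodite library. Counting error alone left each value uncertain, with exact 95% intervals from 3.20 to 9.44 CPM in hermaphrodite replicate 1 and from 127 to 236 CPM in male replicate 3. That last interval lay above those of male replicates 1 and 2, which ended at 89.3 and 81.1 CPM.

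The level of mir-83 was the higher of the pair in every library except male replicate 3. It had 65, 87 and 96 counts in hermaphrodite replicates 1 to 3, which gave 24.8, 37.1 and 42.3 CPM. It had 211, 113 and 39 counts in male replicates 1 to 3, which gave 353, 257 and 159 CPM. The sexes again did not overlap, but here male replicate 3 was the lowest male library, where for mir-49 it was the highest. Its exact 95% interval, from 113 to 217 CPM, lay below that of male replicate 1, from 307 to 404 CPM, and met that of male replicate 2, from 211 to 309 CPM. In such unscaled CPM the median log2 difference of male replicate 3 from the other male libraries was -0.38 over all tested miRNAs. In the authors' normalized values mir-83 stood closer together, at 188, 140 and 123 in male replicates 1 to 3.

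**Figure D1:**
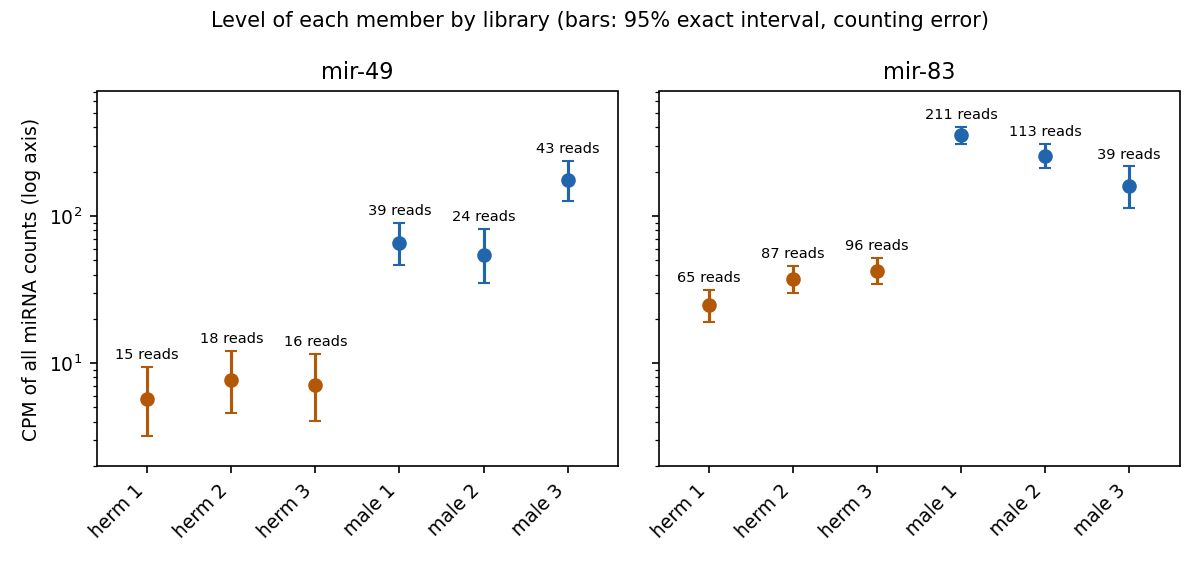
Level of mir-49 (left) and mir-83 (right) in each library, in CPM of all miRNA counts on a log axis; points are single libraries, labelled with their read counts, and bars are exact 95% intervals for counting error. Every male library lies above every hermaphrodite library, and male replicate 3 is the highest male library for mir-49 (175 CPM) and the lowest for mir-83 (159 CPM).

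Neither member was among the abundant gonad miRNAs. By mean CPM mir-83 stood at position 70 of 253 in hermaphrodite and 59 in male gonads, and mir-49 at position 104 and 81. In male gonads mir-83 averaged 256 CPM ± 97.2 (SD, n = 3), between mir-4809 at 257 CPM ± 72.7 and mir-59 at 242 CPM ± 79.2. The next miRNAs outward were mir-4937 at 268 CPM and mir-252 at 241 CPM. For mir-49 the male mean was 98.3 CPM ± 66.8 (SD, n = 3), between mir-1819 at 98.5 CPM ± 39.6 and mir-4923b at 93.9 CPM ± 15.8. Further out lay mir-240 at 103 CPM and mir-37 at 88.3 CPM. None of these neighbours in the order differed from the member by more than the spread between libraries. Without male replicate 3 the male mean of mir-49 was 59.9 CPM ± 7.64 (SD, n = 2). Within male replicates 1, 2 and 3 mir-49 stood at position 85, 90 and 60. Counts were not divided by length, since mature miRNAs are of nearly equal length, and the adapter steps of such libraries favour some sequences over others, so an order of levels is not an order of molecule numbers.

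In the fit over all 124 tested miRNAs, the log2 fold change of male over hermaphrodite was 2.85 for mir-49 (SE 0.613) and 1.86 for mir-83 (SE 0.521). On the linear scale these are 7.20-fold and 3.62-fold. The scaled level of mir-49 averaged 9.91 CPM ± 3.30 over the hermaphrodite libraries and 74.2 CPM ± 60.0 over the male libraries (SD, n = 3 per sex). For mir-83 the averages were 49.6 CPM ± 15.7 and 179 CPM ± 61.5 (SD, n = 3 per sex). By the size of the change mir-49 was 22nd and mir-83 26th among the 38 miRNAs called as higher in male gonads at an adjusted p under 0.05. Those 38 were 30.6% of the miRNAs tested. Every male library lay above every hermaphrodite library in scaled CPM for 38.7% of the tested miRNAs, the members included. Because the pair was chosen with this comparison known, nothing is read from the members being among them.

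**Figure D2:**
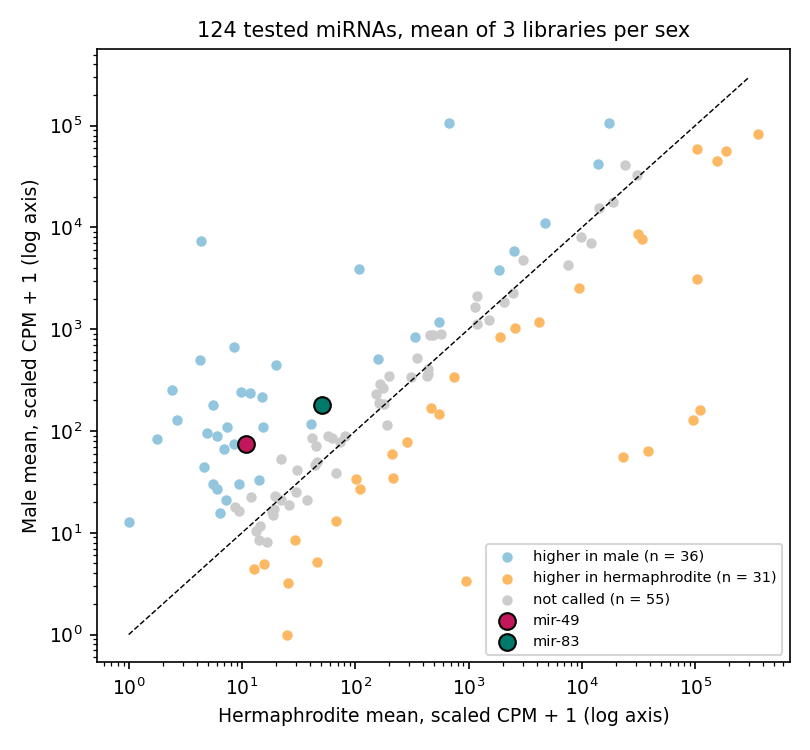
Mean scaled CPM plus 1 of each of the 124 tested miRNAs in hermaphrodite (x) and male gonads (y), both on log axes, with the dashed line marking equal levels and colours marking the calls in edgeR's test. Both members lie above the line, at 9.91 and 74.2 scaled CPM for mir-49 and 49.6 and 179 for mir-83, well below the most abundant miRNAs.

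The size of these changes depended on the scaling between libraries. With library totals in place of TMM, which raised the median log2 fold change of all tested miRNAs by 1.03, the values were 3.80 for mir-49 and 2.89 for mir-83. With TMM computed without the mir-35 family, which moved that median by -0.50, they were 2.42 and 1.38. Another scaling moves all miRNAs of a library by the same factor, so the members are also given relative to the median of all tested miRNAs, which removes most of that shift by construction. The difference from it was 2.70 for mir-49 with TMM, 2.62 with library totals, 2.78 with RLE scaling, 2.70 with upper-quartile scaling and 2.77 with TMM without the mir-35 family. For mir-83 it was 1.71, 1.71, 1.71, 1.68 and 1.73 in the same order. With TMM and without male replicate 3 the difference was 1.73 for mir-49 and 1.73 for mir-83.

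The larger change of mir-49 rested on male replicate 3. Without that library the log2 fold changes of the pair were the same to the second decimal, at 1.72 for mir-49 (SE 0.366) and 1.72 for mir-83 (SE 0.279). On the linear scale both were then close to 3.3-fold. In scaled CPM mir-49 stood at 45.8, 33.6 and 143 in male replicates 1, 2 and 3, and mir-83 at 248, 158 and 130. The mean of male replicates 1 and 2 was 4.0-fold that of the hermaphrodite libraries for mir-49 and 4.09-fold for mir-83. Those means kept the scaling of the full set, while the fit without male replicate 3 computed its scaling anew. In unscaled CPM the ratios of the means were 8.78 and 8.77. At either scaling the members' ratios in male replicates 1 and 2 lay close together, and in male replicate 3 they did not.

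**Figure D3:**
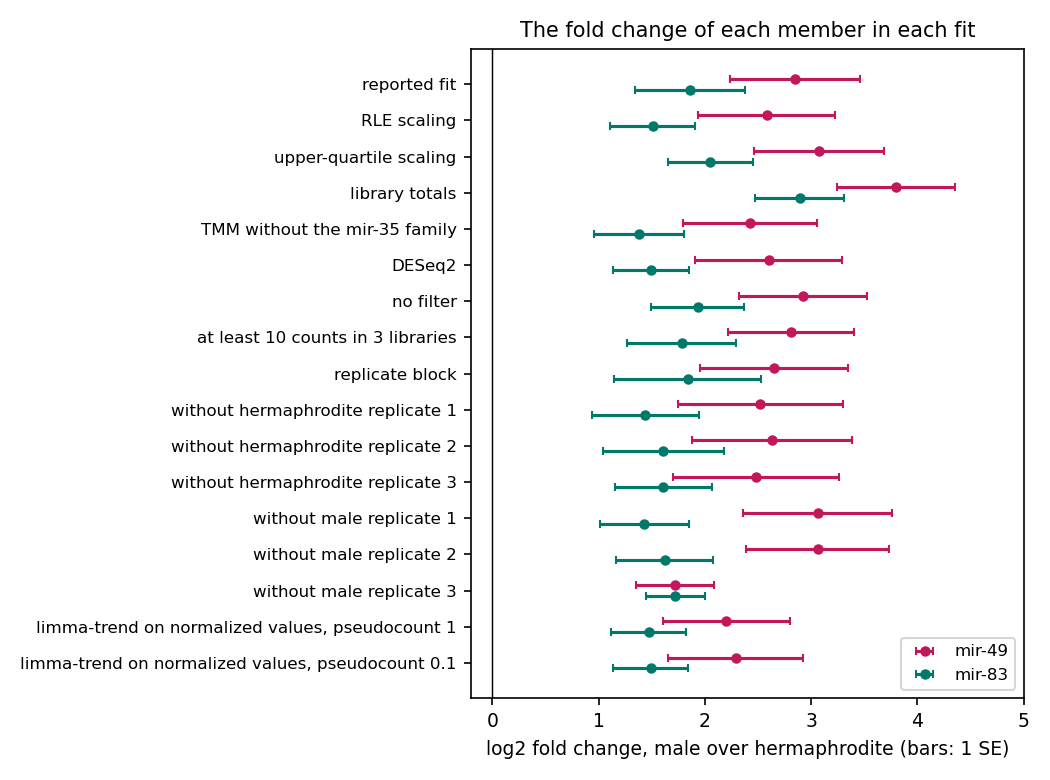
Log2 fold change of male over hermaphrodite for each member (points, with bars of 1 SE) in the reported fit and in 16 alternatives. All values lie above 0, mir-49 lies above mir-83 in every fit that includes male replicate 3, and without that library both are at 1.72.

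The ratio of mir-83 to mir-49 within a library needs no scaling between libraries, and the annotated mature strands of both are of the same lengths. It was 4.33, 4.83 and 6.0 in hermaphrodite replicates 1 to 3 and 5.41, 4.71 and 0.907 in male replicates 1 to 3. The first 5 of these libraries spanned both sexes and lay within 4.33 to 6.0. Male replicate 3 lay far below them and was the only library with more counts of mir-49 than of mir-83. On the log2 scale the ratio averaged 2.32 ± 0.24 over the hermaphrodite and 1.51 ± 1.43 over the male libraries (SD, n = 3 per sex), a difference of -0.81 that is smaller than the male spread. Without male replicate 3 the male mean was 2.34 ± 0.14 (SD, n = 2), and the difference was 0.01.

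As a share of the pair's summed counts, mir-49 made up 18.8%, 17.1% and 14.3% in hermaphrodite replicates 1 to 3. It made up 15.6% and 17.5% in male replicates 1 and 2. In male replicate 3 it was 43 of 82 counts, or 52.4%, with an exact 95% interval from 41.1% to 63.6%. The highest upper limit among the other libraries was 29.0%, in hermaphrodite replicate 1, so the distance exceeded the counting error.

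**Figure D4:**
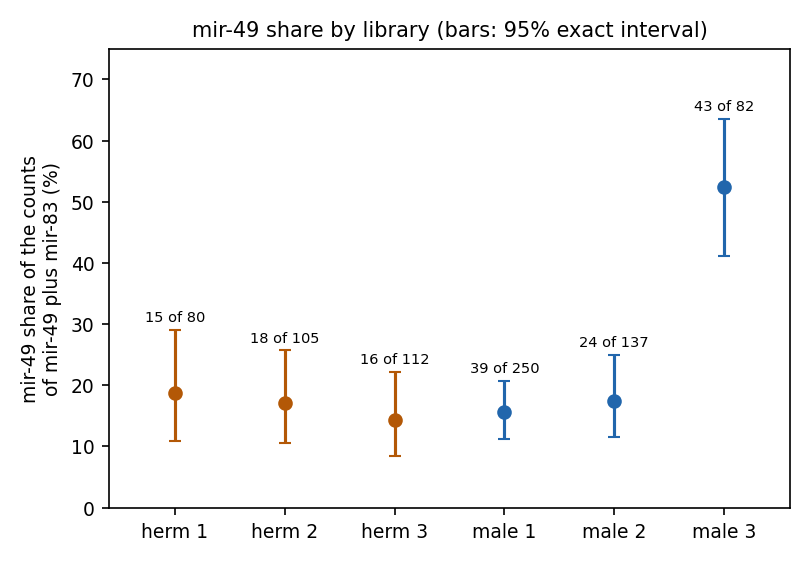
Share of mir-49 in the summed counts of mir-49 and mir-83 in each library, in percent, labelled with the counts; bars are exact 95% intervals for counting error. Of the 6 libraries, 5 lie between 14.3% and 18.8%, and male replicate 3 lies at 52.4%.

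The members were also added together, as miRNAs with a shared seed. The summed level was 43.3, 80.0 and 55.3 scaled CPM in hermaphrodite replicates 1 to 3 and 293, 192 and 273 scaled CPM in male replicates 1 to 3. On that scale male replicate 3 lay between the other male libraries. In the authors' normalized values the sum was 223, 170 and 259 in male replicates 1 to 3, so male replicate 3 was highest. The sexes did not overlap on either scale. The coefficient of variation among male libraries in scaled CPM was 21.3% for the sum, 34.5% for mir-83 and 81.0% for mir-49. In the authors' normalized values it was 20.5%, 22.4% and 89.5%, so the sum and mir-83 lay close together. That order rested on male replicate 3. Between male replicates 1 and 2 the coefficient in scaled CPM was 29.7% for the sum, 31.2% for mir-83 and 21.7% for mir-49. Thus mir-49 then varied least. The log2 fold change of the sum was 2.06 (SE 0.507), and 1.72 (SE 0.262) without male replicate 3. With library totals it was 3.09. The sum was examined after its members' values were seen. The counts do not show which arm the reads came from, or whether the strands are loaded alike.

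Male replicate 3 differed from the other male libraries in many miRNAs, and the members fell on opposite sides. Relative to the mean of male replicates 1 and 2, mir-49 was higher there by 1.83 on the log2 scale of scaled CPM plus 1, position 8 from the top of 124 tested miRNAs. On the same scale the value of mir-83 was -0.64, position 81. The median over all tested miRNAs was -0.07. A difference above 1 was found in 19 miRNAs and one below -1 in 33. Of the 38 miRNAs called as higher in male gonads, 19 were higher in male replicate 3 than in the mean of male replicates 1 and 2. The median difference over the 38 was -0.02. The spread of mir-49 among male libraries was position 16 from the highest of the 124, where the median coefficient of variation was 38.8%.

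**Figure D5:**
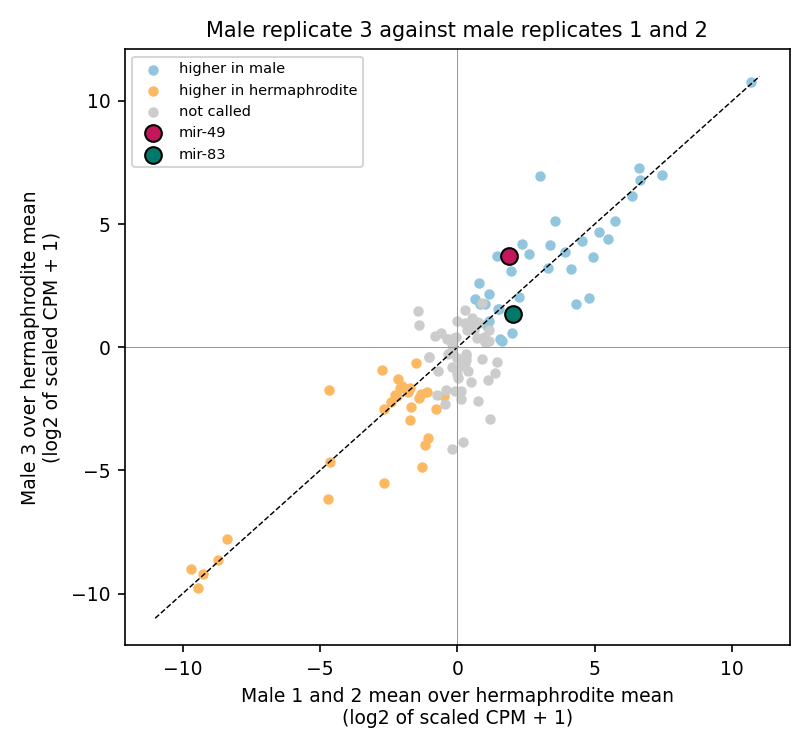
Log2 difference from the hermaphrodite mean (scaled CPM plus 1) for the mean of male replicates 1 and 2 (x) and for male replicate 3 (y), for the 124 tested miRNAs, with the dashed line marking equal values. On the x axis the members are close together, at 1.90 for mir-49 and 2.01 for mir-83, and on the y axis they part, at 3.72 and 1.37.

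Marker miRNAs of other tissues also stood apart in male replicate 3, some high and some low. The glial and hypodermal mir-228 stood at 8250, 8670 and 16000 scaled CPM in male replicates 1 to 3. The muscle miRNA mir-1 stood at 1240, 965 and 333, and the intestinal mir-60 at 1450, 943 and 220. The neuronal markers were low, with lsy-6 at 9.39, 28.0 and 6.66 scaled CPM and mir-791 at 7.04, 1.4 and 13.3. For mir-791 there were 6 counts or fewer in each male library, and for mir-124 there were 1, 2 and 0. The 6 somatic markers together summed to 11000, 10600 and 16600 scaled CPM in male replicates 1 to 3. In hermaphrodite libraries they summed to 6060 to 8270. Most of each sum was mir-228, while mir-1 was lower in every male library than in any hermaphrodite library. In hermaphrodite libraries lsy-6 stood at 4.44 to 6.5 scaled CPM, below every male library, and mir-60 at 351 to 540. Of the 4 somatic markers tested, mir-228 and lsy-6 were called as higher in male gonads and mir-1 as higher in hermaphrodite gonads. Over all tested miRNAs 30.6% were called as higher in male gonads. Of all 6 somatic markers, 2 were higher in male replicate 3 than in both other male libraries, namely mir-228 and mir-791. The share of all tested miRNAs that met this condition was not computed. The mir-2208 and mir-2209 miRNAs, abundant in these male gonads, summed to 130000, 121000 and 94600. The part of these differences in the levels of mir-49 and mir-83 was not tested. In bulk gonads a change in the share of a cell type and a change in its RNA content cannot be told apart.

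The miRNAs whose levels most resembled those of each member over the 6 libraries were different sets. For mir-49 the 5 highest correlations (Pearson's r of log2 scaled CPM plus 1, n = 6) were with lin-4 at 0.996, mir-57 at 0.992, mir-235 at 0.989, mir-358 at 0.979 and mir-357 at 0.977. Each of these was highest in male replicate 3. For example, mir-235, the worm relative of miR-92, stood at 51500, 42200 and 224000 scaled CPM in male replicates 1 to 3, and mir-357 at 72.8, 47.6 and 203. For lin-4, known for timing larval development, these values were 696, 652 and 1140.

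For mir-83 the 5 highest were mir-34 at 0.987, mir-4808 at 0.983, mir-796 at 0.967, mir-2209b at 0.966 and mir-45 at 0.966. Each of these was highest in male replicate 1. The X-linked mir-4808 stood at 345, 248 and 123 scaled CPM in male replicates 1 to 3. The 2 members correlated with each other at 0.78. By that measure mir-83 was position 41 of the 123 other tested miRNAs for mir-49, and mir-49 was position 36 for mir-83. These correlations are descriptions over libraries that fall into separate sexes of unequal depth, and a shared difference between the sexes adds to them. They also draw on male replicate 3, the highest library for mir-49 and the lowest male library for mir-83. No correlations were computed without it, so how far it sets the different sets is not known. For the pair itself, the ratio of mir-83 to mir-49 stayed within 4.33 to 6.0 in the other libraries. In male replicate 3 that ratio was 0.907. The value of 0.78 and the positions of the members for each other include that library. With Spearman's rho 2 of the 5 named for mir-49 and 3 of the 5 named for mir-83 were among the 5 highest.

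The known partner of mir-83 in gonad cell migration, mir-34, stood at 1470, 2390 and 1730 scaled CPM in hermaphrodite replicates 1 to 3 and at 4690, 3250 and 3400 in male replicates 1 to 3. The sexes did not overlap and mir-34 was far more abundant than either member. The log2 fold change of mir-34 was 1.02 (SE 0.402), with an adjusted p of 0.0227 in edgeR's fit. That call was lost in 7 of 16 alternatives, among them RLE scaling, and the adjusted p ranged from 0.000517 to 0.143 over them.

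Both members belong to the 12 miRNAs recalled as followed up by the study, a list taken from memory and presumably drawn up on these libraries, so it is not independent of them. Of the other 10, 9 were called as higher in male gonads and none as higher in hermaphrodite gonads, where 30.6% of all tested miRNAs were called as higher in male gonads. Among those with counts in both sexes the log2 fold changes ran from 0.07 for mir-58a to 5.34 for mir-4809. For mir-261, at 0 in every hermaphrodite library, the male level was at least 6.60-fold higher, against a limit of 3 counts per library. The median of the 10 was 2.79 with mir-261 at that bound and 3.51 with its fitted value, against 0.15 over all tested miRNAs. Of the 10, 5 were higher in male replicate 3 than in both other male libraries. The share of all tested miRNAs that met this condition was not computed, so nothing is read from that number.

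The chromosomes of the members showed calls in both directions. Of 40 tested miRNAs on X, where mir-49 lies, 16 were called as higher in male and 10 as higher in hermaphrodite gonads, with a median log2 fold change of 0.65. Of 28 tested on IV, where mir-83 lies, 13 and 5 were called, with a median of 1.08. Over all 124 tested miRNAs 38 and 31 were called, with a median of 0.15. These numbers depend on the scaling, since over all tested miRNAs the calls were 69 and 20 with library totals and 28 and 36 with TMM without the mir-35 family. Each miRNA gene was counted separately, also where genes lie together in a cluster, so the counts are not of independent units.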

How the data were processed

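Small RNA libraries were made from total RNA of dissected gonads, per the labels' protocols, and groups and replicate numbers were read from the sample titles. The authors deposited whole-number read counts for 253 miRNA genes in each of 6 libraries, not normalized. The submitters' processing notes name Bowtie2, HTSeq and DESeq2 with no settings. A genome build (ce10) and a miRBase release appear only in the deposited names. The handling of reads that match several miRNAs, or a hairpin arm, is not given in the sources used here. The authors also deposited normalized values, used here as a signal. They equalled the counts divided by 1 size factor per library, within 5.09e-10, so they were used only as an alternative. Totals ranged from 245399 to 2621478 counts.

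The whole table was fitted with edgeR 4.0.16 in R 4.3.3. Its filterByExpr (minimum count 10) kept 124 miRNAs, followed by TMM scaling, robust dispersions and the two-sided quasi-likelihood F-test with Benjamini-Hochberg adjustment at 0.05. Log2 fold changes are male over hermaphrodite. In edgeR's fits each SE is the absolute log2 fold change over the square root of F. For the DESeq2 and limma alternatives the SE is the one from that tool's own fit. The model was tested on simulated data. Those sets held no outlying library like male replicate 3 and no changes as large as those of the mir-35 family. CPM are counts scaled to the same total of miRNA counts, and scaled CPM use TMM-scaled library sizes. Exact intervals are 95% Clopper-Pearson intervals (scipy 1.17.1) and cover counting error only, since reads without molecular identifiers may be PCR copies. The alternatives were other scalings and filters, DESeq2 1.42.0, limma 3.58.1 on the authors' values, a replicate block and each library left out.

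The members and lists were chosen with earlier results of these data known. Other miRNAs named are the 5 most correlated with each member, those adjacent in male mean CPM, the nearest miRNA genes, mir-34, marker lists and 12 miRNAs recalled as followed up by the study, which was not checked against a publication. The summed pair was added after its members' values were seen. Coordinates are from WBcel235 (Ensembl release 115). None was converted from the build in the deposited names. No libraries of a sex agreed within sampling noise (a chi-square of at least 2683 for each pair), and all 6 were treated as separate samples. If they do not come from separate preparations, p-values measure only the spread between them.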

Additional observations from a re-analysis of the deposited data

How the results depend on the processing

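Both members were higher in male gonads in all 16 alternatives, a direction known when they were chosen. Their log2 fold changes ran from 1.72 (without male replicate 3) to 3.80 (library totals) for mir-49 and from 1.38 to 2.89 for mir-83. With each library left out in turn they ran from 1.72 to 3.06 and from 1.43 to 1.72, and the number of miRNAs called from 49 to 87, against 69. The reported 1.86 for mir-83 lay above its whole range in these fits. Each of them computed the filter and the scaling anew. The log2 ratio of mir-83 to mir-49, male minus hermaphrodite, ran from -1.28 to 0.01 with a library left out and was -0.79 with 0.5 counts added to both. With Spearman's rho, and its ties broken by name, 5 of the 10 most similar miRNAs named were shared, and with RLE scaling 9. The Spearman count can depend on how ties are broken. The split of calls into higher in male and higher in hermaphrodite was 38 and 31 with TMM, 69 and 20 with library totals, 50 and 27 with the upper quartile and 28 and 36 with TMM without the mir-35 family. With the replicate number as a block the values were 2.65 for mir-49 and 1.84 for mir-83, and 58 miRNAs were called. Same-numbered libraries did not deviate together (r from -0.26 to -0.03), so the numbers are not taken to pair them. Depth limits the precision of mir-49, with 15 to 18 counts in hermaphrodite libraries.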
